A study of Mus musculus with 4 samples.

Results

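Heart macrophages that carried RNA of Ccr2 or of a Ccr2-driven tdTomato reporter were examined among the interstitial (non-cardiomyocyte) cells of mouse hearts, and set against macrophages of the same gate with neither RNA. A member was a cell barcode with 500 or more unique molecular identifiers (UMIs, each standing for 1 captured RNA molecule), 250 or more genes and no more than 15% of UMIs from mitochondrial genes. It also had at least 10 UMIs of C1qa, C1qb and C1qc together and at least 1 UMI of Ccr2 or tdTomato. Barcodes with any UMI of the resident macrophage genes Lyve1, Timd4 or Folr2, with 10 or more UMIs of the lipid-associated genes Fabp5, Lgals3, Spp1 and Gpnmb together, with 20 or more of Fn1, or with any of Cdh5 or Cd79a were left out. The rule kept 95 barcodes as positive of the 382 that met the other conditions, of 38910 barcodes past the quality filter. The 287 barcodes of the gate with neither RNA are called negative. The members were thus selected on the measured UMIs of these genes, whose values are given as a description.

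The hearts were taken 1 month after stroke or in a control condition, with 2 stroke and 2 control samples. All came from the strain that the labels name Ccr2creERT2-Ai14, in which an inducible Cre recombinase driven by Ccr2 switches on tdTomato for good. Control hearts carry the same alleles, and the labels do not state the tamoxifen schedule. The deposited counts join 4 numbered libraries that no label ties to a sample, so no value is assigned to stroke or control. Since the libraries are not tied to animals, the joined counts are treated as 1 sample, with no test or p-value, and the values of each library show how far they spread. Intervals are 95% intervals of counting error only, and UMIs that sit together in few barcodes make the error larger than they show.

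Ccr2 is the receptor for the chemokine CCL2, and classical monocytes use it to leave the bone marrow and enter tissue. In the heart, macrophages of embryonic origin renew themselves and carry Lyve1, Timd4 and Folr2, while monocytes that enter later can become Ccr2-bearing macrophages that present antigen on MHC class II and make interleukin-1 beta. Because recombination in the reporter allele is permanent, tdTomato can remain in a cell that no longer transcribes Ccr2.

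The 4 libraries held 31955157 to 45834980 UMIs, and 161 barcode sequences occurred in more than 1 library, 0 of them among the members. Library 3 stood apart in having 0.0641 CPM (UMIs per 1000000 UMIs) of Xist, the RNA of the inactive X chromosome, while the others had 536 to 593 CPM. Positive barcodes numbered 19, 10, 55 and 11 in libraries 1 to 4, and negative ones 40, 47, 155 and 45. Positive barcodes were deeper, with a median of 5700.0 UMIs against 4218 UMIs in negative ones. For gene levels, 94 positive barcodes were therefore paired with a negative barcode of the same library within 0.25 log2 units of total UMIs. The pairs had medians of 5699.5 UMIs in positive and 5736 UMIs in negative barcodes, and library 3 gave 55 of them.

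Both sets were chosen on C1q, and the sum of core macrophage markers was alike in them. The 10 core macrophage markers, among them Adgre1, Csf1r and Lyz2, summed to 11261 CPM in positive and 11903 CPM in negative barcodes, and 0 of the 10 passed the size rule used below. Most of the sum was Lyz2, at 7620 of 11364 CPM in all 95 positive and 6670 of 11385 CPM in all 287 negative barcodes. Without matching, Csf1r was at 533 CPM (475 to 597) in positive and 734 CPM (688 to 782) in negative barcodes. Dendritic cell markers stood at 229.7 CPM in positive and 212 CPM in negative barcodes. Among those markers Flt3 had 1 UMI in all 95 positive and 1 in all 287 negative barcodes. Cd209a had 1 UMI in the same positive and 0 in the same negative barcodes, and Xcr1 and Clec9a had 0 UMIs in both sets of the pairs. Zbtb46 had 5 UMIs in 4 of all 95 positive barcodes and 7 UMIs in 6 of all 287 negative ones. The whole list had 132 UMIs in all 95 positive barcodes, so most of its sum lay in markers not named here. The 14 dendritic markers summed to 269 CPM in members with both RNAs (78 UMIs) and 311 CPM with Ccr2 alone (35 UMIs). With tdTomato alone they were at 115 CPM, and in all negative barcodes at 192 CPM. The kinds with Ccr2 were thus higher for these markers. The defining genes of classical monocytes were near 0. Ly6c2 had 1 UMI in positive and 6 in negative barcodes, and Plac8 had 5 UMIs in positive and 4 in negative barcodes. Chil3 had 1 UMI in positive and 0 in negative barcodes. In 120 barcodes gated as classical monocytes, which the gate chose on these genes, Ly6c2 stood at 1511 CPM and Plac8 at 2988 CPM. The members are therefore called positive macrophages here, and whether they were recruited from blood was not tested.

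Positive barcodes made up 24.9% of the gate (95 of 382, exact binomial interval 20.6% to 29.5%). By library the share was 32.2% (19 of 59), 17.5% (10 of 57), 26.2% (55 of 210) and 19.6% (11 of 56). The intervals of all 4 libraries overlap for this share. They do not for Ccr2 itself, which was seen in 25.4% of the gate in library 1 (14.98% to 38.4%) and 5.26% in library 2 (1.10% to 14.6%), with 19.05% in library 3 and 8.93% in library 4. Library 2 had 0 barcodes of the gate with 2 or more tdTomato UMIs, which allows up to 6.27%, against 18.6% (9.69% to 30.9%) in library 1 and 10.95% (7.07% to 16.0%) in library 3. Of the 10 members in library 2, 7 had tdTomato alone. With each barcode thinned to 2000 UMIs and 35 shallower barcodes left out, the expected share was 19.1%.

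The members fell into 3 kinds. Both RNAs were present in 43 barcodes, Ccr2 alone in 20 and tdTomato alone in 32. Of the 63 barcodes with Ccr2, 43 also had tdTomato (68.3%, 55.3% to 79.4%), against 32 of the 319 without Ccr2 (10.0%, 6.96% to 13.9%). The reporter was thus present in most barcodes of the gate with Ccr2. The resident macrophage gate showed the same split. There tdTomato was seen in 64.5% of 31 barcodes with Ccr2 (45.4% to 80.8%) and 7.94% of 529 without it (5.78% to 10.6%). The split was not confined to macrophages. tdTomato was seen in 48 of 80 endothelial barcodes with Ccr2 (48.4% to 70.8%), against 5.90% without it. The shares with Ccr2 were 69.2% of 13 B cell and 41.2% of 17 fibroblast barcodes, against 7.65% and 8.86% without it. In the classical monocyte gate the shares were closer, at 81.4% of 97 barcodes with Ccr2 and 73.9% of 23 without it. The cause of the split was not tested. In the macrophage gate the share with Ccr2 was above the share without it in each of the 4 libraries, at 73.3%, 66.7%, 65.0% and 80.0% with Ccr2 in libraries 1 to 4, against 9.09%, 12.96%, 8.82% and 11.8% without it. The median depths were 6346 UMIs with Ccr2 and 4332 UMIs without it, and the part of depth in the gap was not tested.

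Cell types that should lack both RNAs were taken as the background. No measure of free RNA was made, and whether their tdTomato came from free RNA, doublets or recombination was not tested. Ccr2 was seen in 16.5% of the macrophage gate (median 4591 UMIs), against 0.412% of endothelial barcodes (2500.0 UMIs), 0.212% of fibroblast barcodes (6408.5 UMIs) and 0.835% of B cell barcodes (4193.5 UMIs). tdTomato was seen in 19.6% of the macrophage gate, against 6.12% of endothelial, 8.93% of fibroblast and 8.16% of B cell barcodes. Both shares of the macrophage gate were above those of the other cell types. In the resident macrophage gate (5684.5 UMIs) Ccr2 was seen in 5.54% and tdTomato in 11.1%. tdTomato with Ccr2 at 0 was closer to the background, at 8.38% of the whole macrophage gate (5.80% to 11.6%). The other shares were 5.88% of endothelial, 8.84% of fibroblast and 7.58% of B cell barcodes. Counted over barcodes without Ccr2 only, the macrophage gate stood at 10.0% (6.96% to 13.9%). Endothelial (5.90%), fibroblast (8.86%) and B cell barcodes (7.65%) were each below 10.0%, with the fibroblast and B cell values inside its interval. Among barcodes without Ccr2 thinned to 2000 UMIs, the expected share with tdTomato was 5.43% in the macrophage gate, against 3.18% in the resident gate, 3.98% in endothelial, 3.05% in fibroblast and 3.01% in B cell barcodes. The tdTomato-alone members therefore cannot be told one by one from background. Of these 32 members, 24 had exactly 1 tdTomato UMI and 8 had 2 or more. For the main genes and lists, values by kind, or with these members matched anew, are given below.

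**Figure D1:**
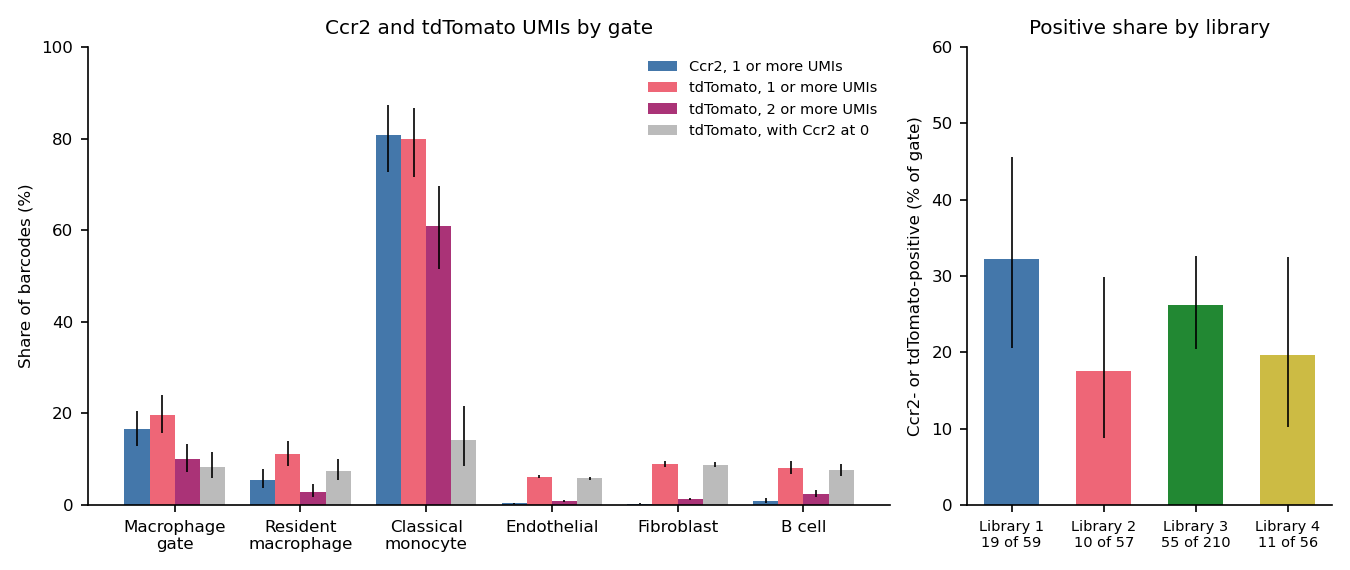
Left, the share of barcodes in 6 gates with Ccr2, with tdTomato at 1 or 2 UMIs and more, and with tdTomato while Ccr2 was 0 (bars, all libraries pooled, error bars exact binomial 95% intervals). Right, positive barcodes as a share of the macrophage gate in each library. Ccr2 reached 16.5% of the macrophage gate against under 1% of endothelial, fibroblast and B cell barcodes. tdTomato without Ccr2 stood at 8.38% of the whole macrophage gate, near the 5.88% to 8.84% of those 3 types. Counted over barcodes without Ccr2 only, it was 10.0% of the macrophage gate.

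Some members lay close to the limits of the rule. A total of 26 of the 95 had exactly 1 UMI of Ccr2 and tdTomato together. The C1q sum had a median of 65 UMIs over the members, 4 of them had 10 to 14 UMIs, and 8 barcodes with 5 to 9 UMIs met every other condition. For the lipid-associated sum, 8 members had 8 or 9 UMIs and 4 barcodes were left out at 10 or 11. For Fn1, 2 members had 15 to 19 UMIs and 15 barcodes were left out at 20 or more, and 16 barcodes were left out for 1 UMI of a resident gene.

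Among the matched pairs, positive macrophages had higher levels of S100 calcium-binding genes, of the MHC class II machinery and, in a few barcodes, of Retnla, and lower levels of Ccl12, Tnf, Isg15 and the resident macrophage receptors Stab1 and Cd163. A gene was called when its mean CPM over both sets was at least 50 and its CPM ratio, positive over negative, was 1.5 or more, or 1/1.5 or less. Every ratio below is positive over negative unless said otherwise. By this rule of size, which is no test, 172 of 3336 genes (5.16%) were called higher and 247 (7.4%) lower. Of these, 58 were higher and 113 lower in every one of the 4 libraries, and the median log2 ratio of all 3336 genes was -0.03. Counts of called list members below are to be read beside the shares of 5.16% and 7.4% over all genes. A single called member is not read as a result about its list. Counting error alone is large for genes near the limit of 50 CPM, so the leading genes are described with their interval or their libraries, and other called genes are given by their ratio alone.

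S100a4, a calcium-binding protein (gene on chromosome 3) abundant in monocytes and in macrophages derived from them, stood at 930.1, 283, 357 and 1177 CPM in the positive barcodes of libraries 1 to 4, against 55.6, 19.1, 57.2 and 0 CPM in the negative ones. The positive value was above the negative one in each library. Pooled, it was 572 CPM in positive and 48.1 CPM in negative barcodes, a ratio of 11.9 (8.01 to 18.3), with UMIs in 45 positive and 12 negative barcodes of 94 each. Without library 3 the ratio was 23.0. Its relatives S100a6 and S100a11 were also called higher, at 798 CPM in positive and 297.7 CPM in negative barcodes (ratio 2.68, 2.24 to 3.22, higher in 3 of 4 libraries) and at 301 CPM in positive and 169 CPM in negative barcodes (1.78, 1.37 to 2.31). S100a11 was no longer called without library 3, at a ratio of 1.27. With these, 3 of the 5 monocyte genes at the 50 CPM limit were called higher and 0 lower (median log2 ratio 0.83), and the 16 genes of that list summed to 2246 CPM in positive and 968 CPM in negative barcodes. Cebpb, a transcription factor of myeloid cells, and Samhd1, a nucleotide-degrading enzyme, were not called, at ratios of 1.02 and 1.23. The 3 S100 genes made up most of the list's gap, and the list's ratio was 2.42 without library 3.

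Among barcodes with Ccr2 the level of S100a4 was alike with and without the reporter, and with tdTomato alone it stood at the negative level. It was 765 CPM in barcodes with both RNAs, 764 CPM with Ccr2 alone and 78.4 CPM with tdTomato alone, against 77.4 CPM in all 287 negative barcodes. UMIs of S100a4 were present in 62.8% of barcodes with both, 55.0% with Ccr2 alone and 21.9% with tdTomato alone, against 10.5% of negative ones. When only members with tdTomato and no Ccr2 were matched anew, the ratio of S100a4 to negative barcodes was 1.19, and it was not called. Capg, which caps actin filaments, Emb, the membrane glycoprotein embigin, and Anxa1, a phospholipid-binding protein that limits neutrophil entry, were highest in kinds with Ccr2. Unlike S100a4, they were also above all negative barcodes with tdTomato alone, without matching. There Capg, Emb and Anxa1 were at 120.6, 72.4 and 78.4 CPM, against 82.0, 36.8 and 44.4 CPM in all negative barcodes. Over all members they were called at ratios of 2.94, 3.08 and 2.03. For tdTomato alone, matched anew, they were not called, at 1.18, 1.01 and 1.09. Emb moved most with single libraries, to 1.95 without library 1 and to 5.83 without library 3.

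**Figure D2:**
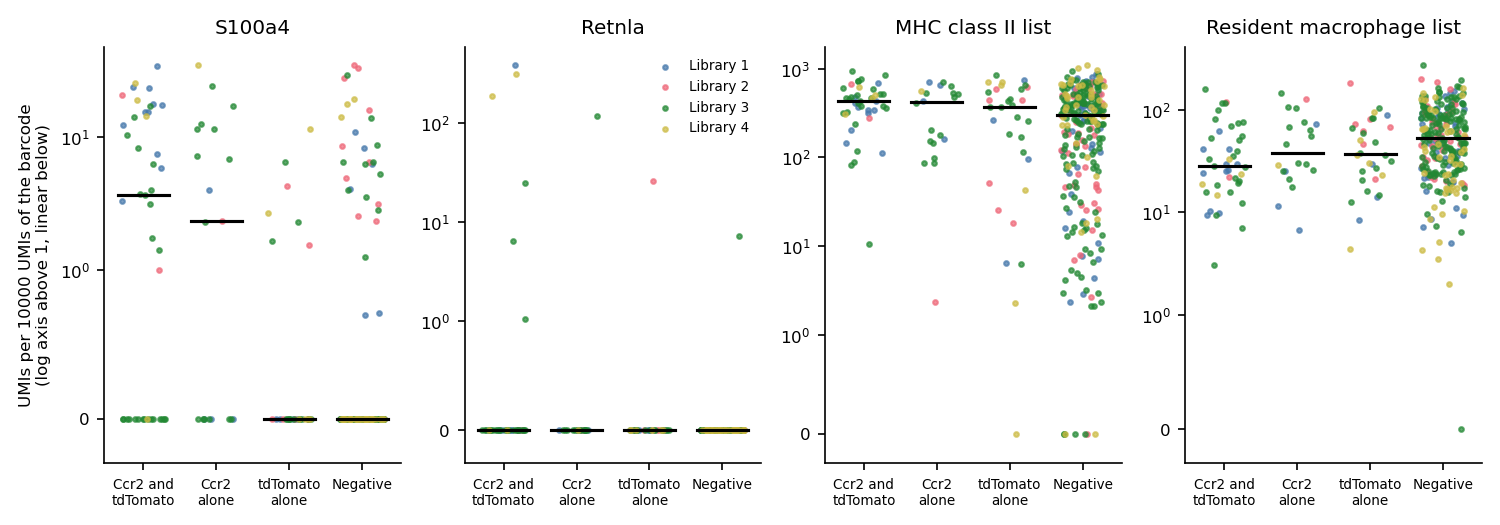
Each point is 1 barcode of the macrophage gate, coloured by library, with UMIs per 10000 of its total on the vertical axis (log above 1) for S100a4, Retnla, the MHC class II list and the resident macrophage list, and a black line at the median. Barcodes with both RNAs, Ccr2 alone and tdTomato alone stand left of the negative ones. The median of S100a4 is above 0 in both kinds with Ccr2 and at 0 in barcodes with tdTomato alone and in negative ones, and Retnla is carried by 8 members.

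Retnla, which encodes the secreted protein RELM-alpha of alternatively activated macrophages (gene on chromosome 16), had the highest ratio of the named genes. It stood at 2311 CPM, 113 CPM, 281 CPM and 5393 CPM in the positive barcodes of libraries 1 to 4, against 0 CPM, 0 CPM, 12.7 CPM and 0 CPM in the negative ones. The pooled ratio was 175 (68.2 to 645), with 1250.2 CPM in positive and 7.13 CPM in negative barcodes. Single barcodes carried this value, because 8 positive barcodes held all 702 UMIs and 1 of them held 333. The ratio was 92.2 without library 1 and 107 without library 4, which hold the 3 richest barcodes, and the 1 negative barcode with Retnla was in library 3. Of the 8 carriers, 7 had Ccr2, and every one had S100a4, at 1 to 15 UMIs. The 3 richest carriers also had 19, 6 and 5 UMIs of Fn1, a gene seen in only 9 members. The rule left out barcodes with 20 or more UMIs of Fn1, so the richest carrier lay at its edge. Retnla was not confined to the positive set, since 27 of 487 resident-gate barcodes with neither RNA also carried it (312 CPM), as did 12 of 73 resident-gate barcodes with Ccr2 or tdTomato (1922 CPM).

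Tnip3, a protein that binds A20 and restrains NF-kB signalling, was at 182 CPM in positive and 10.7 CPM in negative barcodes (ratio 17.0, 7.54 to 47.4), in 18 positive and 4 negative barcodes. It was concentrated in barcodes with both RNAs, at 334.5 CPM, against 35.5 CPM with Ccr2 alone, 12.1 CPM with tdTomato alone and 23.7 CPM in all negative barcodes. Without library 1, whose negative barcodes held most of its UMIs in that set, the ratio was 51.0, and without library 3 it was 10.9. Gm2a, a cofactor of lysosomal ganglioside breakdown, was at 229.7 CPM in positive and 102 CPM in negative barcodes (2.26, 1.64 to 3.15), in 57 positive and 37 negative barcodes. Pltp, which transfers phospholipids between lipoproteins, was at 379 CPM in positive and 189 CPM in negative barcodes (2.01, 1.58 to 2.56), and at 2.66 without library 3. For tdTomato alone the ratio of Pltp was 0.734, on the other side of 1. Mpc2, a subunit of the mitochondrial pyruvate carrier, Ndufv3, a subunit of respiratory complex I, and Ssu72, a phosphatase of RNA polymerase II, were called higher at 1.97, 1.81 and 1.97. Ssu72 was at 1.28 without matching on depth and at 3.14 without library 3.

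Atp2a2, the calcium pump of the sarcoplasmic reticulum, was at 130.0 CPM in positive and 62.4 CPM in negative barcodes, a ratio of 2.08. Cardiomyocyte markers moved the same way: they summed to 1161 CPM in positive and 328 CPM in negative barcodes, all 7 at the 50 CPM limit were called higher, and 364 of their 652 UMIs in the positive set lay in 1 barcode. Without barcodes marked as doublets the ratio of Atp2a2 was 1.47, below the rule. Neutrophil markers, at 534 CPM in positive and 57.0 CPM in negative barcodes, lay with 269 of 300 UMIs in 1 positive barcode. Fibroblast markers were at 2937 CPM in positive and 2689.8 CPM in negative barcodes, endothelial markers at 422 CPM in positive and 599 CPM in negative barcodes, B cell markers at 326 CPM in positive and 374 CPM in negative barcodes, and T and NK cell markers at 81.9 CPM in positive and 144 CPM in negative barcodes. Doublet scoring marked 7 of 95 positive (7.37%) and 9 of 287 negative barcodes (3.14%) of the gate. Over 1% of UMIs came from markers of other cell types in 8 positive (8.42%) and 6 negative barcodes (2.09%). The ratio of S100a4 was 13.5 without barcodes rich in other cells' markers and 16.1 without marked doublets.

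**Figure D3:**
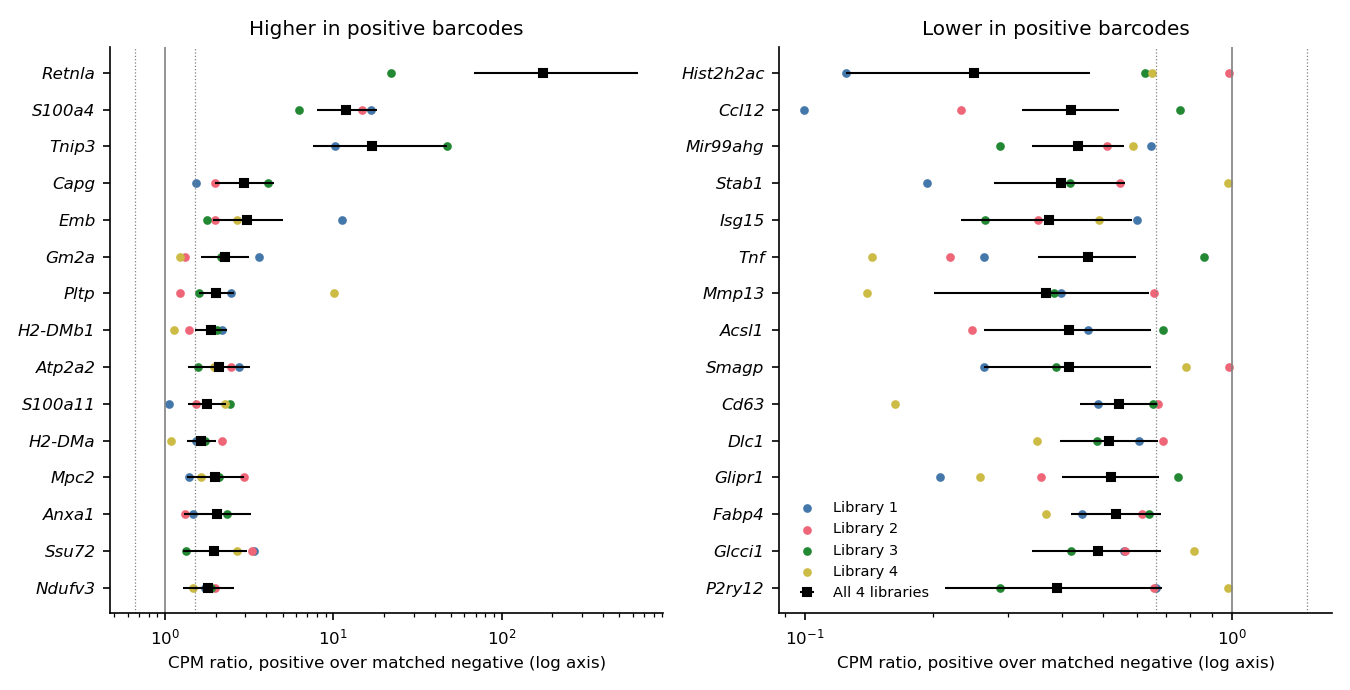
CPM ratio of positive over matched negative barcodes (log axis) for the 15 genes named in each direction, with black squares for all 4 libraries, error bars for the 95% interval of counting error and coloured points for single libraries. A library with 0 UMIs in either set has no point, the solid line marks 1 and dotted lines mark 1.5 and its inverse. Retnla (175), Tnip3 and S100a4 (11.9) lie far to the right, and the other genes named as higher lie between 1.64 and 3.08.

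The summed MHC class II genes were higher in positive macrophages in 3 of 4 libraries. H2-Aa, H2-Ab1 and H2-Eb1 encode the chains that display peptides to CD4 T cells, Cd74 the invariant chain that guards the groove, H2-DMa and H2-DMb1 the exchange factor that loads it, and Ciita the master regulator of the set. The 11 genes summed to 32096, 34707, 38818 and 38395 CPM in the positive barcodes of libraries 1 to 4, against 24244, 26493, 22069 and 41509 CPM in the negative ones. The sum was higher in libraries 1 to 3 and lower in library 4. Pooled, it was 36667 CPM in positive and 24769 CPM in negative barcodes (ratio 1.48, 1.45 to 1.51), and 1.20 without library 3. Of the 7 genes at the 50 CPM limit, 4 were called higher and 0 lower, with a median log2 ratio of 0.62 against -0.03 over all genes.

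Within the group the exchange factor was higher in all 4 libraries. H2-DMb1 was at 434.6 CPM in positive and 232 CPM in negative barcodes (1.88, 1.51 to 2.34) and H2-DMa at 500.5 CPM in positive and 304.8 CPM in negative barcodes (1.64, 1.35 to 1.997). H2-Ab1 was at 5845 CPM in positive and 3802 CPM in negative barcodes (1.54), and Ciita at 123 CPM in positive and 57.0 CPM in negative barcodes (2.15, 1.40 to 3.39), each higher in 3 of 4 libraries. Cd74, H2-Aa and H2-Eb1 stood just under the rule at 1.46, 1.46 and 1.47. Without matching the sum was 36970.4 CPM in positive against 29318 CPM in negative barcodes, a ratio of 1.26, and H2-DMa and H2-DMb1 were not called, at 1.32 and 1.42. By kind, the sum was 39725 CPM with both RNAs, 38473 CPM with Ccr2 alone and 31131 CPM with tdTomato alone, against 29318 CPM in all negative barcodes. Matched anew on depth, the ratio of the sum was 1.63 (1.59 to 1.68) for members with Ccr2. It was 1.64 (1.57 to 1.71) for tdTomato alone, whose matched negative barcodes stood at 19017 CPM.

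The promoters of H2-Aa and H2-Eb1, genes of peptide-binding chains, hold a known regulatory letter sequence, the Y box, which nuclear factor Y binds. They are shown as examples of the list with the higher sum, both at ratios just under the rule, and the window of H2-Ab1 was not analysed here. Both windows run from 250 bases before to 50 bases after the transcript start (RefSeq, build GRCm38.p6), with the Y box CTGATTGG in capitals, searched on both strands. The first lies at chr17:34287774-34288073 on the minus strand and the second at chr17:34305617-34305916 on the plus strand.
H2-Aa: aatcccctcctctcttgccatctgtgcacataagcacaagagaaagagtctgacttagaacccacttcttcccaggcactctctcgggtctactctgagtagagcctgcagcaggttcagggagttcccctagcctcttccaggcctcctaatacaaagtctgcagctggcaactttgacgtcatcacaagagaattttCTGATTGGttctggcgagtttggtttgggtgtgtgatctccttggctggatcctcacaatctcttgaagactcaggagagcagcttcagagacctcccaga
H2-Eb1: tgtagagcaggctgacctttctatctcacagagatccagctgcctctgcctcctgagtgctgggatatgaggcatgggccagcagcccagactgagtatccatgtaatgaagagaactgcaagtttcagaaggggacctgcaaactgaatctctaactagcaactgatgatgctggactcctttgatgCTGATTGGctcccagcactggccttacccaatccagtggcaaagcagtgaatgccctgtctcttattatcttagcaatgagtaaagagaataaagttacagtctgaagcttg
The Y box starts 51 bases before the transcript start in H2-Aa and 62 bases before it in H2-Eb1. It was also present in the windows of H2-Eb2 and H2-Oa, and these letters are not in the windows of H2-DMa, H2-DMb1, H2-DMb2 and H2-Ob. Of 32851 promoter windows of the same length, 1346 (4.10%) hold the same letters. The match is a description of the sequence and says nothing of binding in these cells.

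Genes of resident macrophages outside the rule were lower in positive barcodes. Over the 18 genes, the sum was 3103, 6768, 4869 and 3177 CPM in the positive barcodes of libraries 1 to 4, against 5310.4, 6442, 6360.5 and 3366 CPM in the negative ones. Positive barcodes were lower in libraries 1, 3 and 4 and higher in library 2. Pooled, it was 4442 CPM in positive and 5832 CPM in negative barcodes (ratio 0.762, 0.723 to 0.803, and 0.757 without library 3). Of 12 genes at the limit 3 were called lower and 0 higher, with a median log2 ratio of -0.42. Over all genes 7.4% were called lower and 5.16% higher. Stab1, the scavenger receptor stabilin-1, was at 41.6, 189, 86.2 and 78.4 CPM in positive against 215.5, 344, 206 and 80.1 CPM in negative barcodes. It was lower in each library, with library 4 almost level, and its pooled ratio was 0.398 (0.278 to 0.563). Cd163, the haemoglobin scavenger receptor, was also lower in every library, at 67.7 CPM in positive and 123 CPM in negative barcodes pooled (ratio 0.550). Gas6, a bridging ligand for apoptotic cells, was called lower at 0.657 but was lower in 2 of 4 libraries only. Pf4, a chemokine, and Maf, a transcription factor of resident macrophages, were lower in 4 of 4 libraries without reaching the rule, at 0.695 and 0.705. Matched anew, the list's ratio for tdTomato alone was 0.687. By kind, the list stood at 4099.7 CPM with both RNAs, 5303 CPM with Ccr2 alone and 4409 CPM with tdTomato alone, against 5911 CPM in all negative barcodes, so that this list was lower in all 3 kinds.

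Inflammatory genes did not move as a block. Il1b, which encodes interleukin-1 beta, was at 784 CPM, 151 CPM, 258.5 CPM and 235 CPM in the positive barcodes of libraries 1 to 4, against 306 CPM, 497 CPM, 273 CPM and 500.8 CPM in the negative ones. It was higher in library 1 and lower in the other 3. The pooled values, 381 CPM in positive and 323 CPM in negative barcodes, gave a ratio of 1.18 (0.965 to 1.45) that was 0.737 without library 1, with UMIs in 29 positive and 25 negative barcodes. Of the 5 IL-1 and inflammasome genes at the limit, Casp1, the protease that activates interleukin-1 beta, was called higher (69.5 CPM in positive and 42.8 CPM in negative barcodes, 1.62, interval 0.952 to 2.82), and 0 were lower. Nlrp3, the sensor of the inflammasome, was at 0.910. For tdTomato alone, matched anew, the ratio of Il1b was 2.54 (1.57 to 4.21) and that of the IL-1 list 1.56, against 1.13 for the list over all members. The list stood at 1001 CPM in these members, against 641 CPM in their matched negative barcodes and 859 CPM in all negative barcodes. By kind, Il1b was at 352 CPM with both RNAs, 444 CPM with Ccr2 alone and 380 CPM with tdTomato alone. In all negative barcodes it was at 298 CPM. The IL-1 list was at 0.959 without library 1.

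Tnf, the gene of tumour necrosis factor, was lower in positive barcodes of every library, at 139, 37.7, 191.5 and 98.0 CPM against 528, 172, 222 and 681 CPM in negative ones. The pooled ratio was 0.460 (interval 0.353 to 0.596), and 0.225 without library 3. For tdTomato alone it was 0.768 and not called. In the list of 18 TNF and NF-kB genes, 13 reached the limit, of which Tnf, Relb (0.639) and Cxcl1 (0.236) were called lower and Birc3, an inhibitor of apoptosis, higher (1.59). Cxcl1, a neutrophil chemokine, rested on 7 barcodes in each set and was lower in 1 of 4 libraries. Cxcl2, another neutrophil chemokine, was at 1642 CPM in positive and 1198 CPM in negative barcodes, a ratio of 1.37 under the rule, and higher in all 4 libraries. Nfkbia, which encodes the NF-kB inhibitor, stood at 1.11. The list's ratio was 1.05 over all members and 1.55 for tdTomato alone, matched anew. With tdTomato alone the list stood at 6213 CPM, against 4004 CPM in the matched negative barcodes and 5390 CPM in all negative barcodes.

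Chemokine genes went both ways. Ccl12, a mouse ligand of Ccr2 itself, was at 48.6, 75.4, 236 and 0 CPM in positive barcodes against 487, 325, 311 and 341 CPM in negative ones. It was lower in each library, with a pooled ratio of 0.420 (interval 0.322 to 0.544), 0.591 without library 1 and 0.105 without library 3. By kind it was lower in all 3, at 155 CPM with both RNAs, 97.7 CPM with Ccr2 alone and 181 CPM with tdTomato alone, against 444 CPM in all negative barcodes. Ccl4, a chemokine of activated macrophages, was called lower at 484 CPM in positive and 819.9 CPM in negative barcodes (0.591). Ccl6 and Ccl9, a pair of chemokines of myeloid cells, were called higher at 415 CPM in positive and 180.0 CPM in negative barcodes (2.30) and at 192 CPM in positive and 123 CPM in negative barcodes (1.56). Among the receptors outside the rule, Ccrl2, which binds chemerin without signalling, was called higher (2.14, higher in 2 of 4 libraries). Cx3cr1, the fractalkine receptor of tissue macrophages and patrolling monocytes, was at 502 CPM in positive and 574 CPM in negative barcodes (0.875, 0.743 to 1.03) and was not called.

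**Figure D4:**
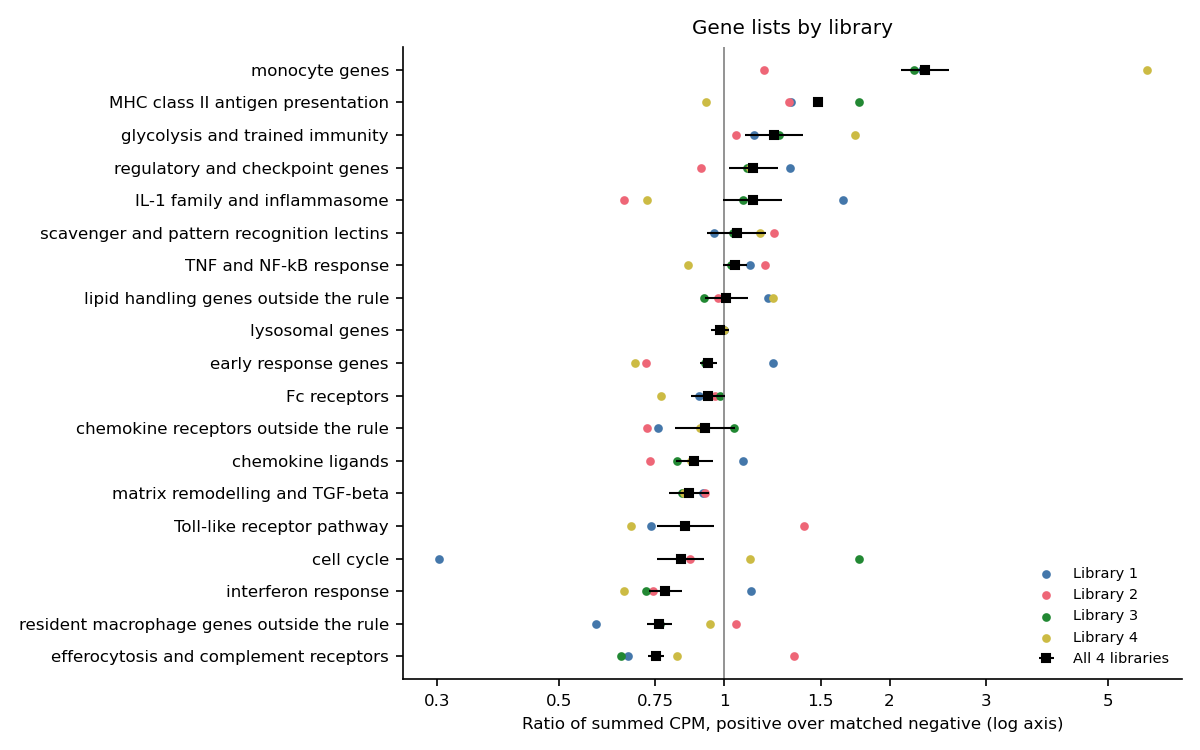
Ratio of summed CPM of each of 19 gene lists, positive over matched negative barcodes (log axis), with black squares and 95% counting intervals for all 4 libraries and coloured points for single libraries. Monocyte genes (2.32) and MHC class II antigen presentation (1.48) lie to the right, and resident macrophage genes (0.762) and efferocytosis and complement receptors (0.752), a sum made up mostly of Apoe, to the left. The cell cycle list differs most between libraries.

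The interferon response list was lower at 2627 CPM in positive and 3360.0 CPM in negative barcodes (ratio 0.782, lower in 3 of 4 libraries). Isg15, a ubiquitin-like protein induced by interferon, was its 1 called member of 7 at the limit, at 62.5, 94.3, 31.9 and 78.4 CPM in positive against 104, 268, 121 and 160.3 CPM in negative barcodes. Its paired values were lower in each library, with a pooled ratio of 0.373 (0.233 to 0.583). Among members with Ccr2 it was 0.672 and not called. The 1 positive barcode left unpaired, in library 4, held 9 of the 37 Isg15 UMIs of all 95, and the library 4 value above leaves it out. Without matching, Isg15 was at 65.1 CPM in all positive and 113 CPM in all negative barcodes. It was seen in 22.1% of those positive and 23.0% of those negative barcodes. Ifi27l2a, the most abundant gene of the list, was at 0.777 and under the rule.

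Matrix genes went both ways. Mmp12, the macrophage elastase, was at 182 CPM in positive and 23.2 CPM in negative barcodes (7.84, 4.39 to 15.2), in 19 positive and 5 negative barcodes, higher in 3 libraries and with 0 UMIs in both sets of library 2. Mmp13, a collagenase, was lower in every library, at 32.1 CPM in positive and 87.3 CPM in negative barcodes (0.367). Tgfbr2, a receptor chain for TGF-beta, was called lower at 0.648, and Adam15, a membrane protease, higher at 1.53 with an interval of 0.947 to 2.51. The other 6 of the 10 genes at the limit were not called.

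Among genes for the uptake of dying cells, the integrin chains Itgam and Itgb2, which together form complement receptor 3, were called higher at 1.56 and 1.67. Of 12 genes of the list at the limit, 2 were called higher and 0 lower, with a median log2 ratio of 0.02, while the list's sum had a ratio of 0.752. Most of that sum was Apoe, at 7685 CPM of 11359 CPM in positive and 11511 CPM of 15106.5 CPM in negative barcodes. Apoe, the lipid-carrying apolipoprotein, was at 5914, 20209.6, 5875 and 10785 CPM in positive barcodes against 10183, 14317, 11254 and 14023 CPM in negative ones. It was lower in libraries 1, 3 and 4 and higher in library 2, with a pooled ratio of 0.668, just short of a call. It differed by kind, at 5355 CPM with both RNAs and 4015 CPM with Ccr2 alone, against 14181 CPM with tdTomato alone and 11906 CPM in all negative barcodes. Pooled without matching, the kinds with Ccr2 were thus lower and the kind with tdTomato alone higher than negative barcodes. Library 2 gave 7 of the 32 members with tdTomato alone, 2 of 43 with both RNAs and 1 of 20 with Ccr2 alone. With tdTomato alone, 1 barcode held 343 of 2351 Apoe UMIs, and Apoe was seen in 87.5% of barcodes, against 97.9% of negative ones. The part of library make-up in these gaps was not tested. The list's ratio was 1.22 for tdTomato alone, matched anew.

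Other lists were close to even, and the genes called in them stand beside 5.16% called higher and 7.4% called lower over all genes. Of 18 lysosomal genes, all at the limit, Psap, the precursor of the saposins, was called higher (1.52) and Cd63, a lysosomal tetraspanin, lower (260.0 CPM in positive and 478 CPM in negative barcodes, 0.544), and the list summed to 9856 CPM in positive and 10014 CPM in negative barcodes. Of 8 lipid handling genes, Pparg, a lipid-sensing nuclear receptor, was higher (2.09) and Abca1, a cholesterol exporter, lower (0.655). Aldoa, a glycolytic enzyme, was the 1 called of 7 glycolysis genes (1.56), and Socs3, a brake on cytokine signalling, the 1 called of 7 regulatory genes (1.96). Of 13 early response genes, which tissue digestion can switch on, Fosb alone was called (0.635). None of the Fc receptor, Toll-like receptor and lectin genes at the limit, 5, 4 and 7 of them, was called. The lectin list, which holds scavenger receptors, had a ratio of 1.05. Top2a, Pcna and Stmn1, genes of dividing cells, were called lower of 7 cell cycle genes. That list rested on single libraries, with 1111 CPM in positive and 3670.0 CPM in negative barcodes in library 1 and 1621 CPM in positive and 921 CPM in negative barcodes in library 3. Its ratio was 1.62 without library 1 and 0.384 without library 3.

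Further genes named by the rule as lower were P2ry12, an ADP receptor (0.391, and 0.721 without library 3), Acsl1, which activates fatty acids (0.416, and 0.198 without library 3), and Dlc1 (0.517). Smagp, Glipr1, Glcci1 and the miRNA host gene Mir99ahg were called lower at 0.416, 0.522, 0.485 and 0.437. Glipr1 was at 0.242 without library 3. The histone gene Hist2h2ac (0.2498) was at 0.666 without library 1, and 30 of its 52 UMIs in negative barcodes lay in 1 barcode. Fabp4, a fatty acid carrier of endothelium, was lower at 0.537. Its ratio was 0.999 without barcodes marked as doublets. The endothelial markers given above include Fabp4 itself, the 1 gene of that list at the limit. Fabp4 held 108 of the list's 237 UMIs in positive and 201 of 336 in negative barcodes. The list's lower sum is therefore not a separate observation.

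Set beside its nearest neighbours in the heart, the positive set was nearer to the negative set than to the classical monocyte gate in MHC class II genes and Mrc1. The MHC class II sum was 36970.4 CPM in the 95 positive barcodes, against 29318 CPM in negative ones, 10632 CPM in 487 resident-gate barcodes with neither RNA and 1051 CPM in 120 classical monocytes. Mrc1, the mannose receptor, was at 735 CPM in positive, 927 CPM in negative, 1809 CPM in resident-gate and 4.17 CPM in monocyte barcodes. S100a4 did not follow that order, being 565 CPM in positive, 77.4 CPM in negative, 493 CPM in resident-gate and 2227 CPM in monocyte barcodes. The gap in S100a4 between positive and negative barcodes was thus not a gap to resident-gate barcodes. Il1b was at 378 CPM in positive, 298 CPM in negative, 44.0 CPM in resident-gate and 552 CPM in monocyte barcodes. These sets were not matched for depth, and the genes of each gate are no finding between them.

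**Figure D5:**
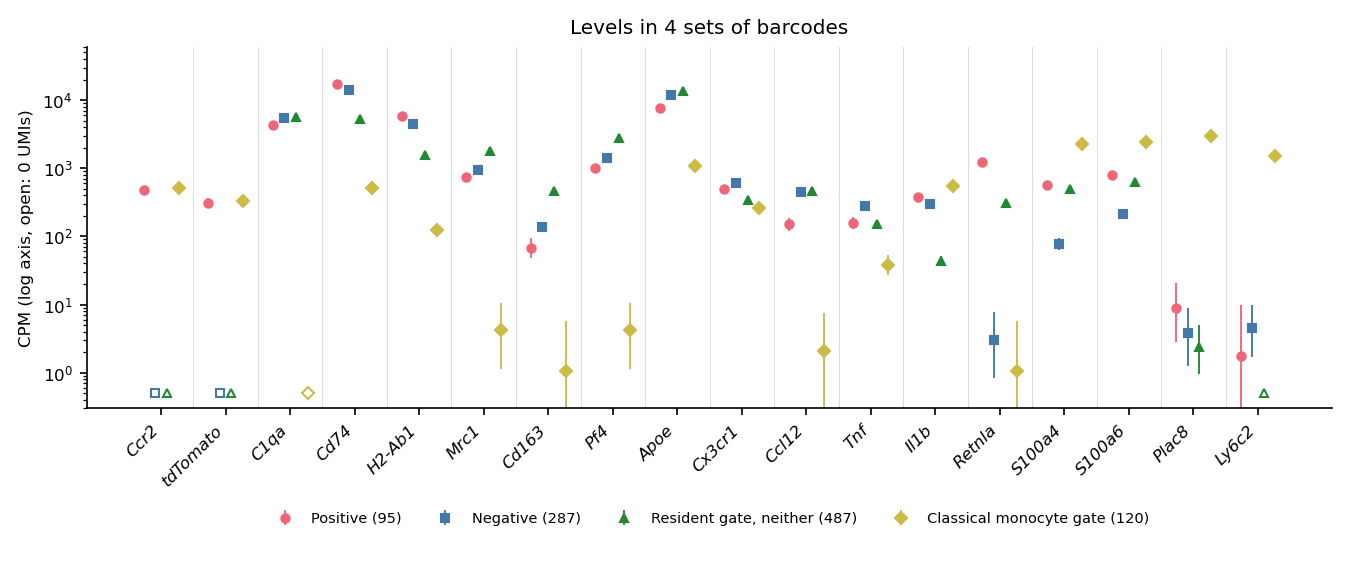
CPM (log axis) of 18 genes in positive barcodes, negative barcodes, resident-gate barcodes with neither RNA and classical monocytes, with 95% Poisson intervals and open symbols for 0 UMIs. C1qa, Ccr2, tdTomato, Plac8 and Ly6c2 were used to choose the sets. Positive barcodes stand with negative ones for Cd74 and H2-Ab1 and near resident-gate barcodes for S100a4 (565 CPM in positive and 493 CPM in resident-gate barcodes).

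The remaining genes of the rule are given as values. Fn1, the gene of fibronectin, was at 119 CPM in positive and 5.35 CPM in negative barcodes, with UMIs in 9 positive and 3 negative barcodes. Lgals3, the gene of galectin-3, was at 378 CPM in positive and 203 CPM in negative barcodes. C1qa, C1qb and C1qc, the chains of complement C1q, were at ratios of 0.857, 0.866 and 0.822. Fabp5 had 23 UMIs in positive and 25 UMIs in negative barcodes, Spp1 had 5 UMIs in positive and 10 in negative barcodes, and Gpnmb had 0 in both.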

How the data were processed

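Single-cell RNA libraries (10x Genomics 3′ v3.1 chemistry, per the labels' protocols) were made from digested, strained, red-cell-lysed and sorted live nucleated heart cells, steps that can set which cells were recovered. The authors deposited 1 table of raw counts, in which each value is a whole number of UMIs of a gene in a barcode, which Cell Ranger 7.1.0 produced from reads aligned to mm10, per the submitters' processing notes. How libraries were joined, and whether depths were equalised, is stated nowhere in these files.

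The members, gene lists and rules were chosen with earlier results of these data known. Positive and negative barcodes were paired within libraries on log2 total UMIs by optimal assignment within 0.25 units. UMIs were summed over each set and divided by the set's total (CPM), and ratios carry exact conditional binomial 95% intervals, which cover counting error only. A gene with a mean of at least 50 CPM was called at a ratio of 1.5 or its inverse, and genes of the rule and mitochondrial genes were never called. The named genes are the 15 in each direction with the same direction in every library of at least 10 pairs, ranked by the interval bound nearest to 1, with called or abundant list members, the rule's genes, Il1b and Cx3cr1. The 19 functional and 11 marker lists hold 368 symbols, of which 366 matched. Lists are given by summed CPM. Doublets were scored with Scrublet in scanpy 1.11.5 on each library, and marked barcodes were kept in the main values. Library 3's automatic threshold marked 0 of 8813 barcodes, so the median threshold of the others (0.208) was used there after the scores were seen. The calculation was checked on simulated counts drawn independently for each gene, without UMIs that sit together in few barcodes. That check therefore does not cover the intervals of genes such as Retnla. Expected shares after thinning were computed exactly over draws of 2000 UMIs without replacement. Promoters came from RefSeq. Alternatives changed matching, depth, gates, the definition of positive, the floor, library weights and each library in turn, and 3 were added after the data were seen. Python 3.11.15, numpy 2.4.6, scipy 1.17.1 and pandas 2.3.3 were used. The planned comparison of stroke with control was not made, because no file ties libraries to samples.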

Additional observations from a re-analysis of the deposited data

How the results depend on the processing

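Over up to 20 alternative settings per gene, the direction of the 30 named genes turned in 3 cases, all for tdTomato-alone members against negative barcodes: Dlc1 had a ratio of 1.07, Fabp4 1.34 and Pltp 0.734. That definition was chosen after seeing the data. The named genes were themselves chosen for the same direction in every library. Leaving out 1 library or weighting libraries equally could therefore hardly turn them, and most other settings share barcodes with the main one. The few turns, and the values kept within the main interval below, are thus no separate support. The main counts of 172 genes higher and 247 lower became 407 and 465 when each barcode was thinned to 2000 UMIs, 269 and 372 for members with Ccr2, 467 and 624 for tdTomato alone, and 571 and 835 at a floor of 20 CPM. Without matching they were 158 and 165. Weighting libraries equally gave 317 higher and 360 lower. Leaving out 1 library gave 187 to 407 higher and 261 to 457 lower, the highest of each without library 3, which leaves 39 pairs. The sets then hold fewer UMIs, apart from the lower floor and the equal weights, and the cause was not tested. The share of positive barcodes was 24.9%, ran from 23.3% to 26.2% with 1 library left out, and was 19.1% after thinning. Over the 30 named genes, Il1b and Cx3cr1, 559 of 635 alternative values kept to within the main interval. Of all, 9 lay on the other side of 1: those 3, 5 for Il1b (lowest 0.737) and 1 for Cx3cr1. For the 19 lists, 292 of 380 kept to within it and 21, in 9 lists, lay on the other side of 1. The cell cycle list ran from 0.384 to 1.62, the IL-1 list from 0.949 to 1.56, the TNF list from 0.957 to 1.55, the Toll-like list from 0.693 to 1.25 and the efferocytosis list from 0.568 to 1.22. Depth limits the rest: 32 tdTomato-alone barcodes and genes near 50 CPM cannot show small differences. No paired analysis was possible because no label or file ties the libraries to the numbered samples, and positive and negative barcodes were compared within each library as values.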
